A study of Mus musculus with 4 samples.

Results

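The D-type cyclins Ccnd1, Ccnd2 and Ccnd3, the kinases Cdk4, Cdk6 and Cdk2, and the Myc family genes Myc, Mycn and Max were followed in hematopoietic stem cells sorted from the bone marrow of control mice and of mice labelled as knockout for Ddx21, a nucleolar RNA helicase of the DEAD box family. These 9 genes were chosen by name, all 9 have a row in the deposited table of 12390 genes, and all 9 passed the filter on low values that left 11742 genes tested. The sort took CD150+ CD48- cells among those that were Lin-, c-Kit+ and Sca-1+, about 5000 for each library, and RNA was copied with a Smart-Seq V4 kit for ultra low input. The 2 control libraries came from mice of genotype Ddx21 fl/fl, labelled WT, and the 2 knockout libraries from mice of genotype Ddx21 fl/fl, CAG-CreERT2, labelled KO. Both groups therefore carried the floxed Ddx21 alleles, and the control genotype names no Cre. CAG is a promoter active in most tissues, so the recombinase was not restricted to blood cells, and CreERT2 is a Cre that tamoxifen activates. The sources used here give no tamoxifen dose, time after it or age of the mice, and do not say whether the 2 libraries of a group came from separate animals. A p-value below therefore speaks of these 4 samples alone, and the spread among them may be technical.

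D-type cyclins are made in response to growth signals and switch on Cdk4 and Cdk6, which phosphorylate the retinoblastoma protein and so release E2F factors for entry into S phase; Cdk2 acts next, with E-type and A-type cyclins. Myc and Mycn are transcription factors that bind the DNA sequence called the E-box only after pairing with Max, and genes of growth, ribosome production and the cell cycle are among their targets. In hematopoietic stem cells, Cdk6 is known to set how quickly a resting cell enters the cycle, and Myc and Mycn act together in the balance between self-renewal and differentiation.

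Promoter sequence from RefSeq (build GRCm38.p6, the assembly also called mm10), taken as 250 bases before to 50 bases after an annotated start, was matched for 6 of the 9 genes in 7 windows, with 2 starts for Ccnd3. They are shown for the 2 kinds of letters that the biology of this family turns on, the E-box read by Myc with Max and a site read by E2F. The E-box CACGTG, which reads the same on both strands, was present in the windows of 3 genes, Cdk4, Cdk6 and Max, and in 7.15% of all 32851 windows. It occurred 4 times in the Cdk4 window, with its first base 172, 118, 98 and 11 bases before the start, against 1 time each in Cdk6, at 220 bases, and Max, at 3 bases. Each line below gives 30 bases on the strand of the gene, 5′ to 3′, with the E-box in capitals.
Cdk4, chr10:127063351-127063380, plus strand: atggcagccagtCACGTGccacacagcgta
Cdk4, chr10:127063405-127063434, plus strand: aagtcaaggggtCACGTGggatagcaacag
Cdk4, chr10:127063425-127063454, plus strand: atagcaacaggtCACGTGgccgtcagggcc
Cdk4, chr10:127063512-127063541, plus strand: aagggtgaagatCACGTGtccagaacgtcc
Cdk6, chr5:3343661-3343690, plus strand: gttctgcggcccCACGTGggtgaacccccg
Max, chr12:76962234-76962263, minus strand: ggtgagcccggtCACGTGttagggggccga
The second search was for the E2F letters TTTCCCGC or TTTGGCGC on either strand, found in 1.56% of all windows and in those of 2 genes here, Mycn and Cdk2. Mycn had the letters 2 times, 183 and 168 bases before the start, and Cdk2 had them once, at 140 bases and on the opposite strand. In the lines that follow, the capitals mark the match.
Mycn, chr12:12942002-12942031, minus strand: aagcaaatggctTTTGGCGCgaaaggcttt
Mycn, chr12:12941987-12942016, minus strand: ggcgcgaaaggcTTTGGCGCctcccctgat
Cdk2, chr10:128705174-128705203, minus strand: aaaccaggaactGCGGGAAAgttgtgcagc
The 2 Mycn lines overlap, since the sites lie close together. All 7 windows had more CpG than the median of 7 over all windows, with 14 to 30 in 300 bases. The lowest count, in Mycn, exceeded that of 63.7% of all windows, and the highest, in Max, that of 88.3%. A match describes the letters in the window and shows no binding, which was not measured.

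The libraries held between 43198649 and 62853208 reads recovered from the deposited values, and each of the 9 genes had between 397 and 47411 of them in a library. Levels are in RPKM, read counts set relative to transcript length and to the total of the library. Ddx21, the targeted gene, stood at 11.0 and 12.1 RPKM in control replicates 1 and 2 and at 6.20 and 6.60 RPKM in knockout replicates 1 and 2. Both knockout libraries were below both controls, and the log2 difference of -0.76 did not pass the test (SE 0.30, adjusted p = 0.158, limma). In rescaled libraries it was -1.07 (adjusted p = 0.102, limma), and voom on the recovered reads passed it as lower (adjusted p = 0.0303). The deleted exons are not named in the sources, so this whole-gene value is a partial check of the labels. Among markers of the sorted type, 12 of 13 stem cell genes had a row, and their sum was 201 and 250 RPKM in the control and 304 and 397 RPKM in the knockout libraries, with 2 called higher. The 8 markers of multipotent and granulocyte-monocyte progenitors summed to 45043 and 47243 RPKM in control and 33568 and 22299 RPKM in knockout (1 called higher, 5 lower), and the 9 neutrophil markers to 25494 and 25687 against 16129 and 9902 RPKM (8 called lower). For stroma and endothelium, 7 of 10 listed markers had a row, and their sum was 353 and 213 RPKM in control against 4834 and 1309 RPKM in knockout replicates 1 and 2 (5 called higher). The B cell markers summed to at most 40.3 RPKM, with no row for Pax5, Ms4a1 and Ebf1. Of 7 T and NK cell markers 3 had a row, which summed to 1231 and 1327 RPKM in control and 888 and 755 RPKM in knockout (1 called lower), while Cd3e, Cd3d, Cd3g and Trac had none. Megakaryocyte markers summed to 373 and 338 RPKM in control and 484 and 771 RPKM in knockout (3 called higher), and those of monocytes to 1665 and 1290 against 1085 and 874 RPKM (1 called lower). Erythroid markers summed to 930 and 427 RPKM in control and 783 and 474 RPKM in knockout (1 called higher, 1 lower). Both knockout sums of that list lay within the control range. These calls are for the deposited values; after the rescaling described next, limma called 1 gene in the whole table. In such bulk libraries fewer cells of a type and less RNA per cell cannot be told apart.

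Values of most genes were higher in the knockout libraries as deposited. The median log2 difference over all tested genes, knockout minus control on log2(RPKM + 1), was 0.31, and the median shift from the control mean was 0.12 in knockout replicate 1 and 0.50 in knockout replicate 2. After the libraries were rescaled by a trimmed mean of ratios the median was 0.017. Each difference below is therefore read against 0.31 in the deposited values, and its rescaled value follows.

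One of the 9 genes, Mycn, was higher in the knockout libraries at an adjusted p under 0.05, and 0 were lower, by limma with Benjamini-Hochberg adjustment over all 11742 genes. Of all tested genes 3.33% were called higher and 0.86% lower. Before adjustment, Mycn and Ccnd2 were higher at a p under 0.05 and 0 members were lower, where 1620 of all tested genes were higher and 288 lower. In the rescaled values limma called 0 of the 9, and Cdk6, which was lower, was the 1 member with an unadjusted p under 0.05, where 1018 of all tested genes were higher and 856 lower. Voom on the recovered reads also called 0, with 0 of the 9 at an unadjusted p under 0.05. Over all genes these tests called 0.00852% and 0.426% higher, and voom called 0.162% lower. The median log2 difference of the 9 genes was 0.25 in the deposited values against 0.31 over all tested genes, and -0.094 against 0.017 after rescaling. In the deposited values the limma fit replaced each gene's own spread by a trend over all genes. Its p-values are therefore too small for genes whose replicates lie far apart. In the rescaled values the SE also followed each gene's own replicates, from 0.13 for Cdk6 to 0.40 for Mycn. Calls on the 2 scales thus differ in how spread was estimated as well as in scaling.

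**Figure D1:**
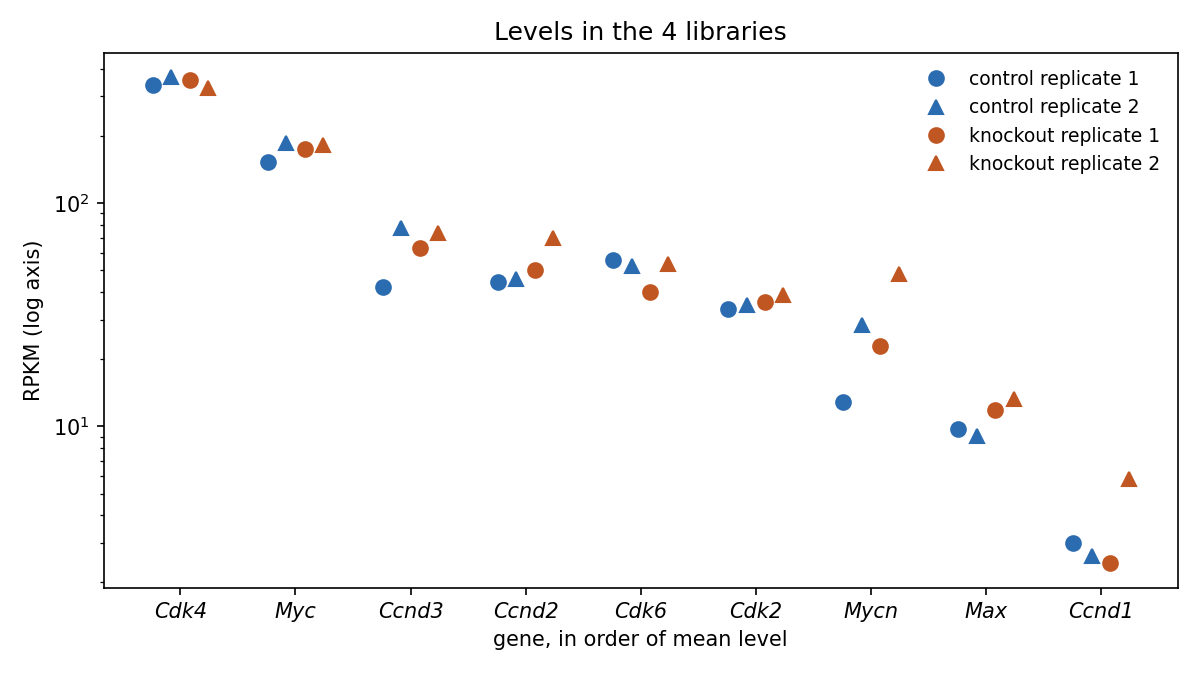
Level of each of the 9 genes in each library, in RPKM on a log axis, with genes ordered by mean level; blue points are control, orange points knockout, circles replicate 1 and triangles replicate 2. Cdk4 lies between 327 and 366 RPKM and Ccnd1 between 2.44 and 5.80 RPKM, and for Mycn the control triangle lies above the knockout circle.

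Of the cyclins, Ccnd3 and Ccnd2 were abundant and Ccnd1 was scarce. Ccnd2 (ENSMUSG00000000184, chr6:127125162-127152193, minus strand), the D-type cyclin induced by many cytokines, stood at 44.3 and 45.9 RPKM in control replicates 1 and 2 and at 50.1 and 69.6 RPKM in knockout replicates 1 and 2. Its groups did not overlap, and knockout replicate 2 was the high library. The log2 difference of 0.38 (SE 0.19) had an unadjusted p of 0.0498 and an adjusted p of 0.307 (limma), and after rescaling it was 0.036, with overlapping groups.

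Ccnd3 (ENSMUSG00000034165, chr17:47505051-47599691, plus strand), the D-type cyclin prominent in blood cell maturation, stood at 42.1 and 77.0 RPKM in control and at 63.0 and 73.6 RPKM in knockout. The lowest and the highest value were both controls, which differed 1.83-fold, while the knockout libraries differed 1.17-fold. Its log2 difference of 0.25 (SE 0.19, adjusted p = 0.434, limma) was smaller than the spread between the control libraries, and it turned to -0.094 after rescaling and to -0.18 without control replicate 1.

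Ccnd1 (ENSMUSG00000070348, chr7:144929931-144939925, minus strand), the D-type cyclin best known from epithelial cells, stood at 3.01 and 2.62 RPKM in control and at 2.44 and 5.80 RPKM in knockout. Knockout replicate 1 was the lowest library and knockout replicate 2 the highest, a 2.38-fold gap within the group. The log2 difference of 0.34 (SE 0.34, adjusted p = 0.519, limma) was about the size of its SE. It was 0.062 after rescaling and -0.15 without knockout replicate 2. On the opposite strand, LTO1 shares 1100 exon bases with Ccnd1 and stood at 3.95 and 3.54 RPKM in control and at 5.52 and 8.14 RPKM in knockout. No source used here states strand-aware counting, so reads of the shared bases may be counted for either gene and the Ccnd1 values are uncertain. Exon bases are also shared with opposite-strand genes by Ccnd3 (361 bases, Bysl), Cdk6 (368, Gm17590), Ccnd2 (368 and 372) and Cdk2 (34). Bysl stood at 10.7 to 14.7 RPKM and Gm17590 at 2.29 to 5.06 RPKM, below Ccnd3 and Cdk6. The genes that overlap Ccnd2 and Cdk2 have no values here.

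Cdk4 and Cdk6, the partners of the D-type cyclins, did not pass the test in the deposited values. Cdk6 (ENSMUSG00000040274, chr5:3341485-3531008, plus strand) stood at 55.5 and 52.2 RPKM in control and at 39.9 and 53.4 RPKM in knockout. One knockout library was low and the other lay within the control range. Its log2 difference was -0.22 (SE 0.20, adjusted p = 0.494, limma), the lowest of the 9 genes, and 7.16% of tested genes had a lower one. Knockout replicates 1 and 2 differed by -0.42 and -0.011 from the control mean, and by -0.54 and -0.51 once the median shift of all genes in the same library was subtracted.

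After rescaling, Cdk6 stood at 61.4 and 60.2 in the control libraries and at 41.0 and 40.8 in the knockout libraries, in rescaled RPKM. The groups did not overlap, and the knockout mean was 32.8% below the control mean. On this scale the log2 difference was -0.56 (SE 0.13), with an unadjusted p of 0.00497 and an adjusted p of 0.158 (limma), which is short of the threshold, and 5.95% of tested genes had a lower one. Over the 13 alternatives run the difference of Cdk6 stayed below 0, between -0.57 and -0.011, with adjusted p from 0.0764 to 0.957.

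Cdk4 (ENSMUSG00000006728, chr10:127063534-127067920, plus strand), whose window above holds 4 E-boxes, was the most abundant of the 9 genes, at 338 and 366 RPKM in control and at 355 and 327 RPKM in knockout. Its groups overlapped and the 4 libraries lay close together. The log2 difference was -0.046 (SE 0.16, adjusted p = 0.849, limma). After rescaling it stood at 374 and 422 in control and at 364 and 250 in knockout, a log2 difference of -0.40 (SE 0.29, adjusted p = 0.511, limma) that knockout replicate 2 carried. With quantile normalization it was 0.079, above 0. Tspan31, on the opposite strand, shares 641 exon bases with Cdk4 and stood at 25.3 to 36.5 RPKM, well below it.

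Cdk2 (ENSMUSG00000025358, chr10:128697939-128705031, minus strand), the kinase of the E-type and A-type cyclins, stood at 33.7 and 34.8 RPKM in control and at 36.2 and 38.9 RPKM in knockout. The groups did not overlap, with both knockout libraries higher. The log2 difference of 0.13 (SE 0.21, adjusted p = 0.679, limma) was below the 0.31 of all genes, and it turned to -0.21 after rescaling, where both knockout libraries were lower than both controls.

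**Figure D2:**
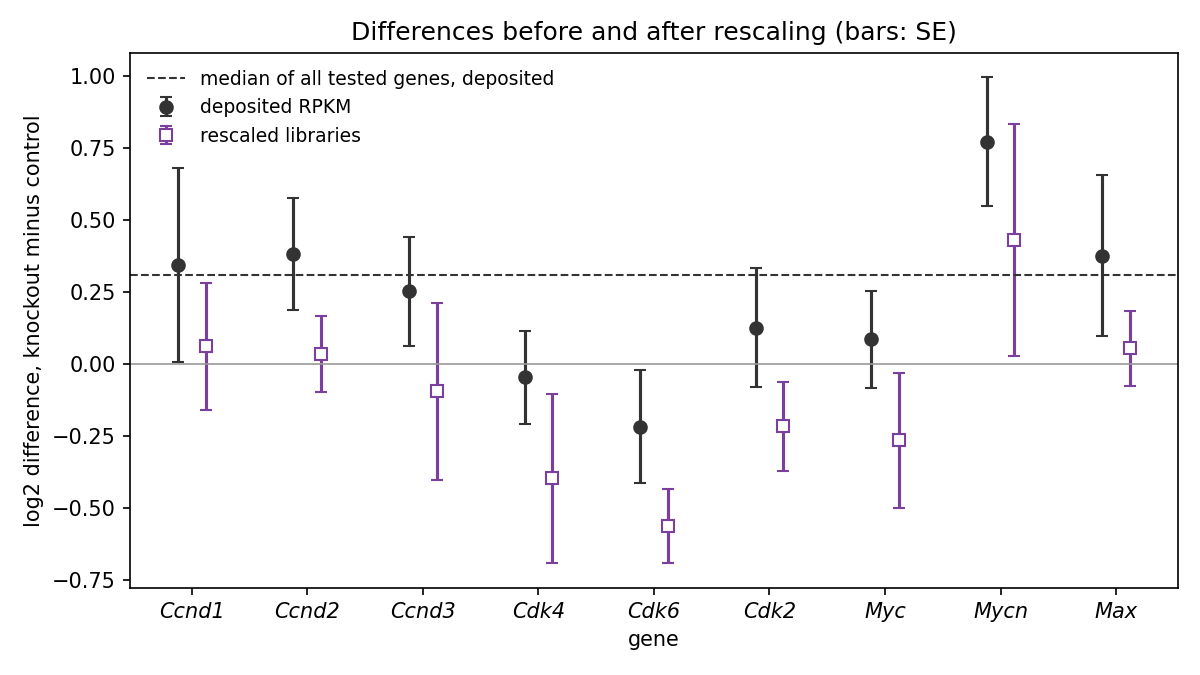
Log2 difference, knockout minus control, of each of the 9 genes, with bars for 1 SE; filled circles are the deposited values, open squares the rescaled libraries, and the dashed line is the median of all tested genes in the deposited values, 0.31. Mycn has the highest and Cdk6 the lowest value in both, and 5 of the 9 squares lie below 0.

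In the Myc family Mycn differed most between libraries, within the groups as well as between them. Mycn (ENSMUSG00000037169, chr12:12936093-12941914, minus strand), the Myc paralog known from immature and neural cells and expressed in resting stem cells, stood at 12.8 and 28.5 RPKM in control and at 23.0 and 48.3 RPKM in knockout. The groups overlapped, since control replicate 2 exceeded knockout replicate 1, and the highest library was knockout replicate 2. Means were 20.6 ± 11.1 RPKM in control and 35.7 ± 17.9 RPKM in knockout (SD, n = 2 each). The gap between replicates was 2.22-fold in control and 2.10-fold in knockout, larger than the 1.73-fold gap between the group means.

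Its log2 difference of 0.77 (SE 0.22, adjusted p = 0.0196, limma) passed the threshold, and 4.51% of tested genes had a higher one. The SE came from the trend over all genes and not from these 4 values. The call was lost after rescaling, where the log2 difference was 0.43 (SE 0.40, adjusted p = 0.595), with quantile normalization (0.55, adjusted p = 0.595), with voom on the recovered reads (adjusted p = 0.532) and in limma without a trend (adjusted p = 0.0969). It was also lost without control replicate 1 (log2 difference 0.22, adjusted p = 0.932), without control replicate 2 (1.32, adjusted p = 0.259) and without knockout replicate 2 (0.25, adjusted p = 0.801). Without knockout replicate 1 the difference was 1.29 (adjusted p = 0.0380), in a setting where 54.3% of all genes were called higher and 4.48% lower. Over the 13 alternatives the adjusted p of Mycn ran from 0.0176 to 0.932, and its sign stayed positive in each. As deposited, the stem cell markers counted above also had their highest sum in knockout replicate 2, at 397 RPKM, and their lowest in control replicate 1, at 201 RPKM. The middle order differed: the markers were lower in control replicate 2 (250 RPKM) than in knockout replicate 1 (304 RPKM), and Mycn was higher. Megakaryocyte markers as deposited were highest in knockout replicate 2 as well, at 771 RPKM, but lowest in control replicate 2. Marker sums were not rescaled, and the scaling factor was 1.31 for knockout replicate 2 against 0.974 for knockout replicate 1. The part of either list in the Mycn values was not tested.

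Myc (ENSMUSG00000022346, chr15:61985391-61990374, plus strand), the most abundant of the 3 Myc family genes, stood at 153 and 186 RPKM in control and at 175 and 183 RPKM in knockout. Both knockout libraries lay within the control range. The log2 difference was 0.086 (SE 0.17, adjusted p = 0.729, limma), below the 0.31 of all genes, and -0.26 after rescaling (SE 0.23, adjusted p = 0.576), with overlapping groups there too.

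Max (ENSMUSG00000059436, chr12:76937269-76962201, minus strand), the obligate partner of Myc and Mycn, stood at 9.78 and 9.06 RPKM in control and at 11.9 and 13.2 RPKM in knockout. Both knockout libraries were above both controls. The log2 difference of 0.38 (SE 0.28, adjusted p = 0.433, limma) was close to the 0.31 of all genes, and after rescaling it was 0.055 with overlapping groups.

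Counted together, 3 of the 9 genes (Ccnd2, Cdk2 and Max) had knockout values above both controls and 0 had values below both in the deposited table, where 55.5% and 7.38% of all tested genes did. After rescaling 0 were above and 3 (Cdk4, Cdk6 and Cdk2) were below, against 29.0% and 25.5% of all tested genes. Which genes were separated thus depended on the scaling, and Cdk2 was separated in opposite directions on the 2 scales.

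The level of a gene moved with its rescaled difference across the whole table. The 2004 tested genes whose mean reached 30 RPKM had a median log2 difference of 0.077 as deposited and -0.27 after rescaling, and 59.5% of them were lower in both knockout libraries after rescaling. The 5082 genes from 1 to 5 RPKM had a median of 0.0998 after rescaling, with 13.7% lower in both. Cdk4, Myc, Ccnd3, Ccnd2, Cdk6 and Cdk2 belong to the first class and Ccnd1 to the second. Against the median of -0.27 of their class, the rescaled values of Myc (-0.26) and Cdk2 (-0.21) lie near it. Those of Ccnd3 (-0.094) and Ccnd2 (0.036) lie above it, and those of Cdk4 (-0.40) and Cdk6 (-0.56) below it. The part of expression level in these differences was not tested.

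Ratios between 2 genes of a library do not depend on the factor that scales each library. Myc exceeded Max 15.6-fold and 20.5-fold in the control libraries and 14.7-fold and 13.9-fold in the knockout libraries, per transcript length. The groups did not overlap, with a log2 difference of -0.33 and an exact two-sided permutation p of 0.333, which is the smallest that 2 against 2 libraries allow. Myc belongs to the class of 30 RPKM or more, whose median log2 difference as deposited was 0.077. Max belongs to that from 5 to 30 RPKM, whose median was 0.34. The part of expression level in this ratio was not tested. For Cdk6 the level was 0.164 and 0.143 of that of Cdk4 in control and 0.113 and 0.163 in knockout, with overlapping groups (exact permutation p = 0.667). Ccnd3 stood at 0.950 and 1.68 of the Ccnd2 level in control and at 1.26 and 1.06 in knockout, and Ccnd1 at 0.0680 and 0.0571 of Ccnd2 in control and at 0.0487 and 0.0834 in knockout, both with overlapping groups and an exact permutation p of 1. A ratio added after values were seen, Mycn to Myc, was 0.0838 and 0.153 in control and 0.132 and 0.264 in knockout, also with overlapping groups (exact permutation p = 0.667). Adjusted over these 5 ratios each p was 1.

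**Figure D3:**
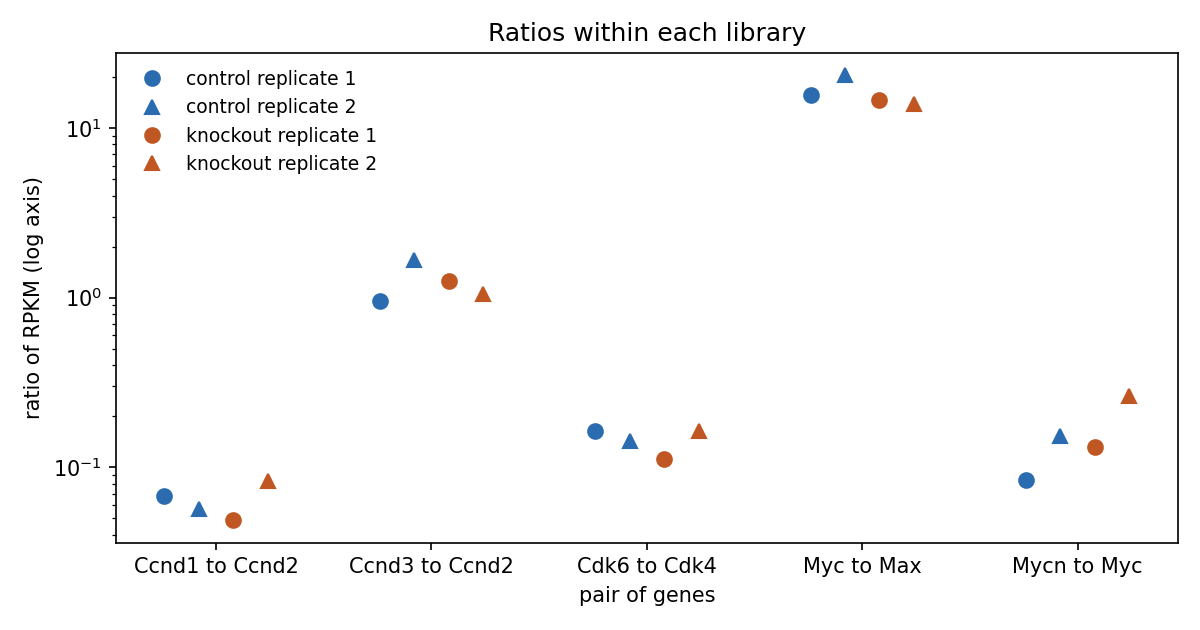
Ratio of RPKM between pairs of the genes within each library, on a log axis, with blue points for control, orange for knockout, circles for replicate 1 and triangles for replicate 2. Myc to Max is the pair whose groups do not overlap, at 15.6 and 20.5 in control against 14.7 and 13.9 in knockout.

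The make-up of each family by level was compared between libraries. Ccnd3 made up between 47.1% and 61.3% of the summed RPKM of the D-type cyclins, Ccnd2 between 36.6% and 49.5%, and Ccnd1 between 2.09% and 3.90%. The lowest and highest shares of Ccnd2 and Ccnd3 were both in control libraries. The D-type cyclin sum was 89.4 and 126 RPKM in control and 116 and 149 RPKM in knockout, which overlap. Among the kinases Cdk4 took between 78.0% and 82.3% of the sum, and the lowest share of Cdk6, 9.27%, was in knockout replicate 1. Mycn held 7.73% and 13.3% of the sum of Myc and Mycn in control and 11.6% and 20.9% in knockout.

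By mean RPKM over the 4 libraries the order was Cdk4 (346), Myc (174), Ccnd3 (63.9), Ccnd2 (52.5), Cdk6 (50.3), Cdk2 (35.9), Mycn (28.1), Max (11.0) and Ccnd1 (3.47). Cdk4 and Myc were first and second in each library, and Max and Ccnd1 eighth and ninth. The ranges of the 4 libraries overlapped between Ccnd3 and Ccnd2, between Ccnd2 and Cdk6, between Cdk2 and Mycn, and between Mycn and Max. Of these neighbours Mycn exceeded Max within each of the 4 libraries. Cdk4 exceeded 98.1% of all tested genes by mean level, Myc 96.6% and Ccnd1 33.4%. These comparisons are per length of the longest transcript, which for Cdk6 is 11525 bases and for Cdk4 2053.

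The other genes of the pathway were taken from 8 lists with 83 entries, of which 77 were tested. Limma called 1 higher, the inhibitor Cdkn1a, and 0 lower, and before adjustment 6 were higher and 0 lower at a p under 0.05, against 1620 and 288 of all 11742 tested genes. Voom on the recovered reads called 1, and before adjustment 4 were higher and 5 lower, against 1157 and 858 of all genes. Cdkn1a, which encodes the p53-induced inhibitor p21 that holds Cdk2 complexes in check, stood at 2.61 and 2.10 RPKM in control and at 31.5 and 64.3 RPKM in knockout. It rose by a log2 difference of 3.78 (SE 0.28, adjusted p = 2.46e-39, limma), and after rescaling by 3.49 (adjusted p = 0.0494, limma), while quantile normalization ended the call (adjusted p = 0.152). The 3 other inhibitors tested, Cdkn1b, Cdkn2c and Cdkn2d, had log2 differences from 0.19 to 0.36 and were not called.

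Partners and substrates of the kinases were not called. The list of E-type and A-type cyclins also holds the kinase gene Cdk1. Of its 4 genes 0 were called, with a median of 0.074. Ccne1, the E-type cyclin that activates Cdk2, stood at 17.4 and 12.9 RPKM in control and at 23.1 and 18.8 RPKM in knockout (log2 difference 0.45, adjusted p = 0.331, limma). Ccna2, the A-type cyclin of S phase, stood at 94.8 and 98.4 RPKM in control and at 73.9 and 94.2 RPKM in knockout, lower in both knockout libraries on both scales, with log2 differences of -0.21 and, rescaled, -0.56 (adjusted p = 0.478 and 0.212, limma). The 13 RB and E2F genes had a median of 0.27 and 0 called. Before adjustment 3 of them were higher at a p under 0.05 by limma, where 1620 of all 11742 tested genes were. The lowest p belonged to Tfdp2, a DNA-binding partner of E2F (0.70, adjusted p = 0.250), and Rbl2, the pocket protein p130 of resting cells (0.67, adjusted p = 0.301). In the list of the CDK-activating kinase, Cdc25 and Wee1 0 of 8 were called and the median was 0.33, with Mnat1 (0.55, adjusted p = 0.360) and Cdk7 (0.31, adjusted p = 0.426), which form that kinase with cyclin H, at the lowest p. Cdk7 turned to -0.024 after rescaling.

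The lists of Max partners and of turnover genes also stood near the median of all genes. The list of Max partners also holds the Max-like factor Mlx and its partner Mlxip. Its 8 tested genes had a median of 0.36 with 0 called. Mxd4, which competes with Myc for Max, stood at 3.22 and 2.29 RPKM in control and at 4.37 and 6.27 RPKM in knockout. Its log2 difference was 0.75 (adjusted p = 0.248, limma), and that of Mlxip was 0.48 (adjusted p = 0.409, limma). Mxd4 kept non-overlapping groups after rescaling, where its log2 difference was 0.47 (adjusted p = 0.248). The 8 turnover genes had a median of 0.26 with 0 called, and the lowest p belonged to the F-box gene Fbxo4 (0.66, adjusted p = 0.307) and the ubiquitin ligase gene Huwe1 (0.46, adjusted p = 0.423).

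The target lists of both factors lay below the median of all genes. Of 16 Myc targets 0 were called, with 0 at an unadjusted p under 0.05 and a median of 0.034 against 0.31 over all genes; of 16 E2F targets 0 were called, with 0 at an unadjusted p under 0.05 and a median of 0.026. After rescaling the medians were -0.31 and -0.32 against 0.017, limma called 0 of either list, and 15 of 16 members of each had a value below 0. On that scale 12 of the Myc targets and 8 of the E2F targets were lower in both knockout libraries than in both controls, against 25.5% of all tested genes. Of these lists 14 and 12 members have a mean of 30 RPKM or more, the class whose median was -0.27 on that scale. In that class 59.5% of genes were lower in both knockout libraries after rescaling. Ldha, the lactate dehydrogenase, stood at 1566 and 1918 RPKM in control and at 1476 and 1352 RPKM in knockout (-0.30, adjusted p = 0.351, limma), while Cad, an enzyme of pyrimidine synthesis, had 0.41 (adjusted p = 0.412). Among E2F targets Cdt1, a licensing factor of replication origins, had a log2 difference of 0.30 (adjusted p = 0.459, limma) and was -0.030 after rescaling.

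**Figure D4:**
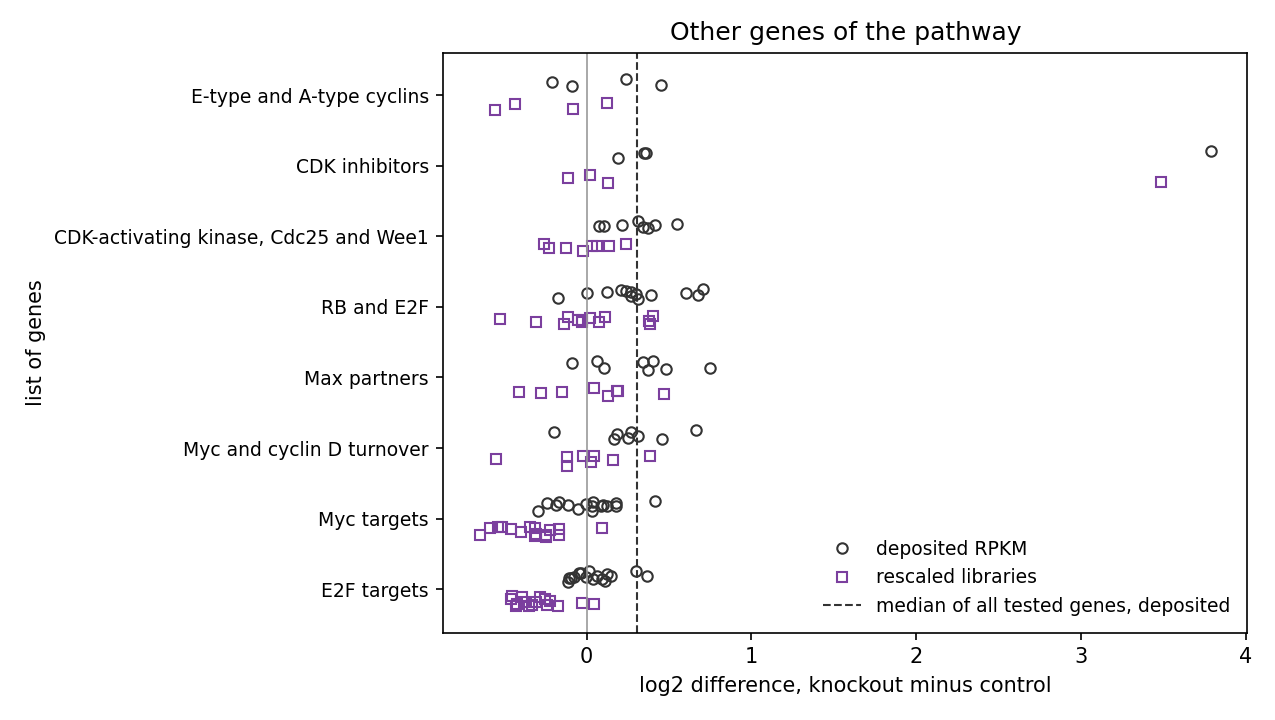
Log2 difference, knockout minus control, of each tested gene of the 8 pathway lists, with circles for the deposited values, squares for the rescaled libraries and a dashed line at the median of all tested genes as deposited, 0.31. Cdkn1a stands alone at 3.78, and 15 of 16 squares of both target lists lie below 0.

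Profiles over the 4 libraries were compared by Euclidean distance of log2(RPKM + 1) after subtraction of each gene's mean, among 6649 genes of 5 RPKM or more on average. Nearest to Mycn were Npdc1 (distance 0.31), Gata2 (0.32) and Scarf1 (0.37). Gata2, a transcription factor of stem and progenitor cells, stood at 18.1 and 29.9 RPKM in control and at 30.6 and 55.3 RPKM in knockout, so it shared the low control replicate 1 and the high knockout replicate 2. Nearest to Myc were Ptbp1 (0.025), Mcm2 (0.043) and Edf1 (0.047), all with small differences between libraries. With 4 libraries many genes have similar profiles, and these names are a description.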

How the data were processed

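RNA from 2 control and 2 knockout libraries was deposited by the authors as 1 table of RPKM, a unit identified from the values: value times longest transcript length (GENCODE M21) came out as whole reads, within 0.1, for 99.3% of values under 2000 reads. Submitters' processing notes name build mm10; aligner and counter: not given in the sources used here. Genes low in all libraries were not analysed here, the lowest maximum being 1.0063 RPKM. A symbol was found for 12381 of 12390 gene IDs.

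On log2(RPKM + 1), limma 3.58.1 (R 4.3.3) fitted genotype alone, with a trend of variance on level and 2 residual degrees of freedom, to genes averaging 1 RPKM or more. A call is a Benjamini-Hochberg adjusted p below 0.05. Folds on this scale understate changes of low genes. Groups followed the titles. The fit was tested on simulated data. Alternatives were rescaling by trimmed means of log ratios, quantile normalization, pseudocount 0.1, other filters, no trend, voom on recovered reads, a replicate block, and each library left out. Members and lists were chosen with earlier results of these data known. Named genes are the 9 members, Ddx21, per pathway list those called or otherwise the 2 with the lowest p, except 1 gene not reported here, and the 3 profiles nearest to Myc and to the member with the lowest p. The level classes and the rescaled block were chosen after seeing the data. Counting error of the least covered value (397 reads) is about 5.02%, for counting alone.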

Additional observations from a re-analysis of the deposited data

How the results depend on the processing

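Cdk6, Ccnd2, Mycn and Max kept their sign under each of the 13 alternatives run, and the other 5 genes did not. All genes called higher and lower numbered 391 and 101 as reported, 1 and 0 after rescaling and 0 and 0 with quantile normalization. They numbered 50 and 19 with voom and 373 and 52 without a trend. After rescaling the SE also followed each gene's own replicates, so that count differs in more than scaling. With a filter of 5 RPKM, which tests fewer genes, 235 were higher. Leaving out 1 library gave 27 to 6381 higher and 5 to 526 lower. Of the 9 genes 1 was called higher as reported, and 0 after rescaling, with quantile normalization, with voom and without a trend. Without 1 library 0 to 4 were called higher, where the lone sample left in a group is taken to vary like the others. The 4 were Ccnd1, Ccnd2, Mycn and Max without knockout replicate 1. In that setting 54.3% of all tested genes were called higher and 4.48% lower, so these 4 calls do not set the 9 genes apart.

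Same-numbered libraries deviated from their group means with a correlation of 0.067 across genes, so the numbers were not taken as pairs. With the replicate block 175 genes were higher and 64 lower and 0 of the 9 genes were called, with an adjusted p of 0.106 for Mycn; the ratios have the same values. The replicate block with rescaling called 522 higher and 625 lower and 0 of the 9 genes. In that setting limma called Ddx21 lower (adjusted p = 1.00e-07) and Mxd4 higher (adjusted p = 0.0479). With the block alone neither was called (adjusted p = 0.541 and 0.667, limma).

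Signs turned as follows, and the cause was not tested. After rescaling, with or without the block, Ccnd3 had -0.094, Cdk2 -0.21, Myc -0.26, Cdk7 -0.024 and Cdt1 -0.030. With voom these were -0.063, -0.20, -0.24, -0.020 and -0.027. With quantile normalization Ccnd1 had -0.022, Cdk4 0.079 and Cdk2 -0.094. Leaving out 1 library gave -0.15 to 0.84 for Ccnd1, -0.18 to 0.68 for Ccnd3, -0.10 to 0.012 for Cdk4 and -0.054 to 0.23 for Myc. The log2 difference of the Ccnd1 to Ccnd2 ratio was 0.032, turned to -0.038 with a pseudocount of 1 and ran from -0.36 to 0.42 without 1 library; Ccnd3 to Ccnd2 ran from -0.54 to 0.28, Cdk6 to Cdk4 from -0.44 to 0.093 and Myc to Max from -0.52 to -0.13.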
